A study of Homo sapiens with 6 samples.

Results

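The 41 genes described here make the proteins that copy DNA: the factors that license replication origins, the helicase, the polymerases, the clamp and its loader, the enzymes of nucleotide synthesis, the cyclins E and E2F factors of the G1/S transition and the factors that copy chromatin. They were taken by name from a list, and all 41 were found by symbol among the 27259 genes of the deposited comparison and had a line in each of the 6 library tables. RNA was sequenced from U87MG, an established human glioblastoma cell line, in 3 U87MG-control libraries and 3 U87MG-LMO2 libraries. U87MG-control cells had been infected with a control lentivirus and U87MG-LMO2 cells with a lentivirus that carries LMO2, a LIM-domain protein that bridges transcription factors, in both groups for 24 h. Both groups therefore had a viral infection in common. The study's methods name pLL-CMV-puro, a vector with a CMV promoter and puromycin resistance, for LMO2, and describe no selection of the infected U87MG cells.

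Replication begins when the origin recognition complex, CDC6 and CDT1 load the ring of MCM2 to MCM7 onto DNA in the G1 phase. At the start of S phase CDC45 and the GINS proteins turn this ring into an active helicase, and the polymerases follow it with the clamp PCNA. Many of these genes are transcribed in a wave at the G1/S transition, when E2F factors are released from the retinoblastoma protein, and cells that divide rapidly, glioblastoma cells among them, express them strongly. A level in bulk RNA cannot tell a smaller share of cells in S phase from less of the mRNA in each cell.

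The E2F recognition sequence is what a large part of the list had in common in its promoters. Windows from 250 bases before to 50 bases after the annotated gene start were available from RefSeq (GRCh38.p14) for 36 of the 41 genes, all but MCM4, MCM5, GINS4, RPA2 and CCNE2. An E2F-like match, counted as any of TTTCCCGC, TTTGGCGC, TTTCGCGC and TTTGCCGC on either strand, was present in 20 of the 36 windows (55.6%) and in 3.99% of all 27305 windows. In 17 of those 20 genes the first match in the window began before the gene start, in 12 of them within 60 bases of it, and 5 genes had more than 1 match. The match was not particular to the list, since 15 of 39 windows of other replication genes (38.5%) held it. It was in 4 of 20 windows of G1/S switch genes and in 3 of 33 windows of mitosis genes (9.09%). The first 3 sites below belong to genes whose statistics are given in full. The other 5 were chosen after their values were seen, to show the helicase ring, the loader of that ring, the clamp and the second E2F factor. Each is 30 bases long, written 5′ to 3′ on the strand of the gene, with the matched letters in capitals.
E2F1 (chr20:33686394-33686423, minus strand, 33 bases before the start): ctttcGCGGCAAAaaggaTTTGGCGCgtaa
UHRF1 (chr19:4909476-4909505, plus strand, 14 bases before the start): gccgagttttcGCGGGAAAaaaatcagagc
GINS3 (chr16:58392455-58392484, plus strand, 5 bases before the start): cgtccccgggcGCGGGAAAcgagtttcaat
E2F2 (chr1:23531257-23531286, minus strand, 42 bases before the start): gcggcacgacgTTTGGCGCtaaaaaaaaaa
MCM2 (chr3:127598404-127598433, plus strand, 2 bases after the start): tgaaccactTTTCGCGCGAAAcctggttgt
MCM6 (chr2:135876575-135876604, minus strand, 152 bases before the start): ggctttgcaTTTGGCGCGAAAtccctttcc
CDC6 (chr17:40287875-40287904, plus strand, 7 bases after the start): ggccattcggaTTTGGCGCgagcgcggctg
PCNA (chr20:5126663-5126692, minus strand, 59 bases before the start): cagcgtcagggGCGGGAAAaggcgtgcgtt

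In MCM2 and MCM6 pairs of matches overlapped, since the letters read on both strands around a common core, and MCM6 held 4 matches in its window. A match of letters is a description and does not show that a factor bound there. The CCAAT box was present in 58.3% of the members' windows and in 39.7% of all windows. It was in 59.0% of the windows of other replication genes, 55.0% of G1/S switch genes and 81.8% of mitosis genes. CHR-like letters (TTTGAA or TTCGAA), known from promoters of genes that peak in mitosis, were in 2 of the 36 windows (5.56%) against 19.5% of all windows. They were in 27 of 33 windows (81.8%) of the mitosis genes.

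The libraries held 11428432 to 17892955 expected counts. LMO2 itself was at 0.607, 0.803 and 0.378 CPM (the normalised read count, scaled to library size by TMM) in the U87MG-control libraries and at 333, 307 and 878 CPM in U87MG-LMO2 replicates 1 to 3, so all 3 carried the transgene and replicate 3 had the most of it. The mesenchymal genes VIM and CD44 were abundant in every library, at 10908 to 13155 and 1121 to 1502 CPM. Of the glial genes, NES was at 40.2 to 48.9 CPM, whereas OLIG2 had 6 to 14 counts, SOX2 at most 4 and S100B at most 1. Genes of other cell types were low, with 6 to 10 counts of the leukocyte gene PTPRC, at most 1 of the endothelial gene CDH5 and 51 to 81 of the endothelial gene PECAM1, and 1 to 6 of EPCAM and 27 to 48 of CDH1, both epithelial. U87MG-LMO2 replicate 3 stood apart from its group, with a chi-square per degree of freedom of 37.8 and 52.1 against replicates 1 and 2, which differed from each other by 7.70. U87MG-control replicate 1 gave 10.9 and 10.3 against control replicates 2 and 3, which gave 2.26 with each other. The calls and the fold changes of the genes described in full are given with all libraries and without U87MG-LMO2 replicate 3.

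Between U87MG-LMO2 and U87MG-control, none of the 41 genes passed the test in either direction when all 6 libraries were compared (edgeR quasi-likelihood test, adjusted p under 0.05). Over all 16092 genes tested, 4.72% were called higher in U87MG-LMO2 and 2.75% lower. An unadjusted p under 0.05 was reached by 6 of the 41 genes, and by 25.7% of all genes. The fold changes of the list were small and lay on both sides of 0, with 19 genes above and 22 below, a median log2 fold change of -0.03 (-0.01 for all genes) and a range from -0.48 for RFC5 to 0.58 for E2F1. In 3 genes, POLD1, TK1 and E2F1, every U87MG-LMO2 library was above every U87MG-control library, and in another 3, GINS3, RFC4 and RFC5, every one was below. That is 7.32% in each direction, while non-overlap was seen in 17.5% of all genes with U87MG-LMO2 higher and in 16.6% with it lower.

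**Figure D1:**
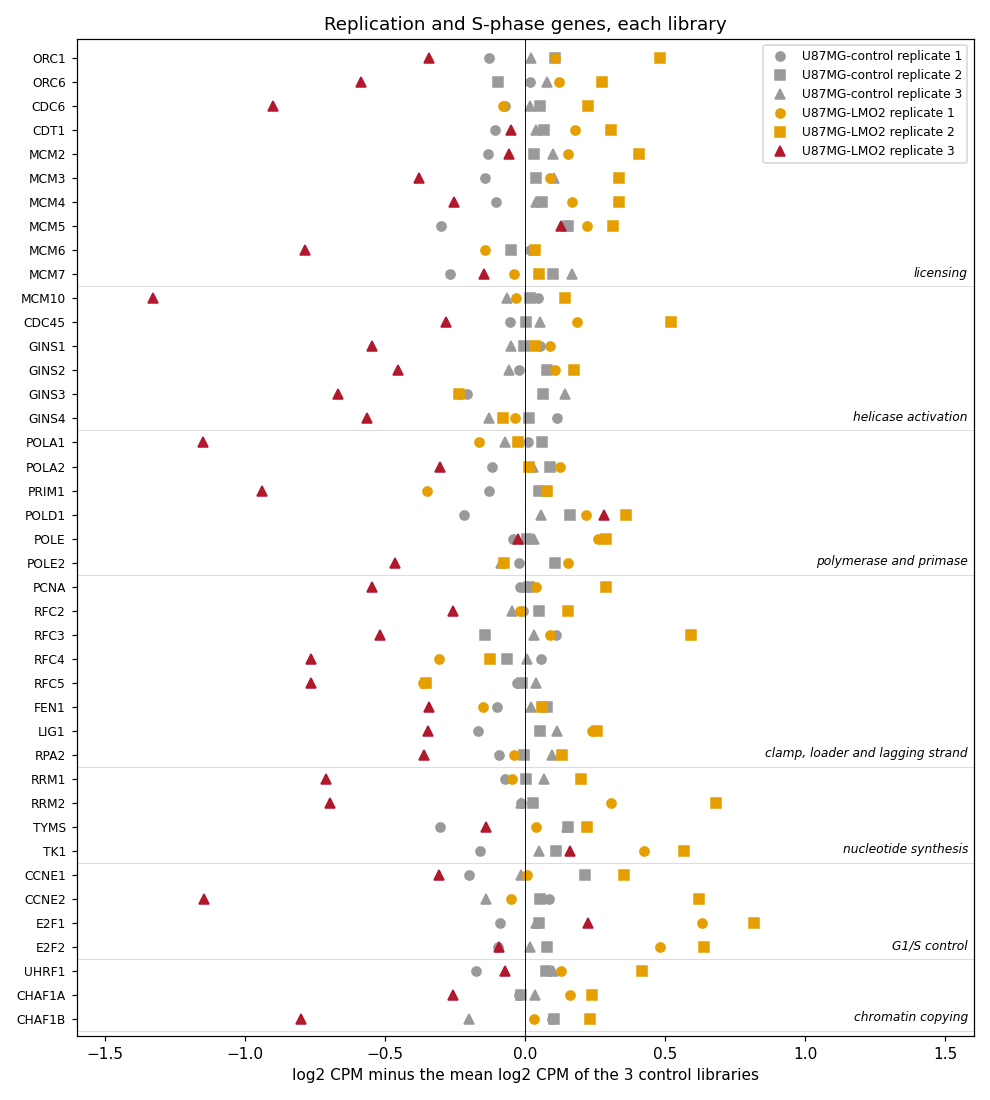
Level of each of the 41 genes in each library, as log2 CPM minus the mean log2 CPM of the 3 U87MG-control libraries (x axis), with genes in rows by role and 1 symbol per library. U87MG-LMO2 replicates 1 and 2 (yellow) lie near or to the right of the controls (grey) for most genes, and to the left of every control for GINS3, RFC4 and RFC5. Replicate 3 (red) is the leftmost of the 3 U87MG-LMO2 symbols for 40 of the 41 genes.

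The libraries behind these fold changes were far apart in U87MG-LMO2. Replicate 3 was the lowest of the 3 U87MG-LMO2 libraries for 40 of the 41 genes (97.6%), which compares with 41.6% of all genes, and it was the highest for none (40.2% of all genes). It was the lowest of all 6 libraries for 30 genes (73.2%, against 28.3% of all genes). Its log2 level differed from the mean of replicates 1 and 2 by a median of -0.51 over the list and -0.00 over all genes. The exception was POLD1, the catalytic subunit of the polymerase that copies the lagging strand, at 106, 117 and 111 CPM in replicates 1 to 3. Replicate 2 was the highest of the 3 for 36 genes. No test sets replicate 3 against the others, since it is a single library.

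In replicates 1 and 2 the same genes tended to lie above the controls, with a median log2 difference of 0.16 over the list and -0.00 over all genes. Both libraries were above every control for 17 of the 41 genes (41.5%, against 24.3% of all genes). They were below every control for 3 of the 41 genes, against 3848 of all 16092 tested genes. Replicate 3 was below the control mean by a median of 0.36 on the log2 scale (median log2 difference -0.36). The group mean therefore averaged libraries that departed from the controls in opposite directions. Among the controls, replicate 1 was the lowest for 28 genes (68.3%, against 38.5% of all genes), with a median log2 difference from the other two of -0.11. Most of these counts moved little under other scalings. Replicate 3 was the lowest U87MG-LMO2 library for 41 genes with total counts or FPKM, against 53.5% and 51.9% of all genes. With upper-quartile or DESeq2 size factors it was the lowest for 40 (41.7% and 40.6% of all genes). It was the lowest of all 6 libraries for 36 genes with total counts, 35 with FPKM and 30 with upper-quartile or DESeq2 size factors. Replicates 1 and 2 were both above every control for 17 to 19 genes. With total counts the median difference of replicate 3 was -0.63 for the list and -0.13 for all genes.

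**Figure D2:**
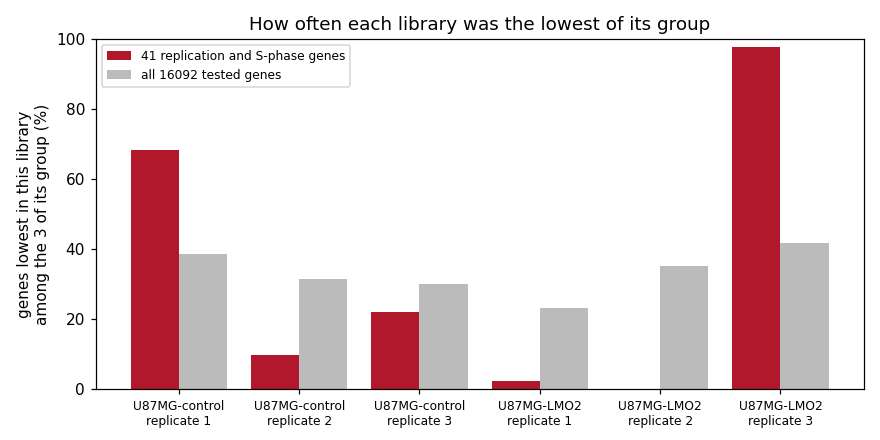
Percent of genes that were lowest in each library among the 3 libraries of its group (y axis), for the 41 genes (red) and for all 16092 tested genes (grey). U87MG-LMO2 replicate 3 was the lowest for 97.6% of the 41 genes against 41.6% of all genes, and U87MG-control replicate 1 for 68.3% against 38.5%.

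Summed over the list, the 41 genes took 4501, 5084 and 5102 CPM in U87MG-control replicates 1 to 3 and 5248, 5932 and 4047 CPM in U87MG-LMO2 replicates 1 to 3. Replicates 1 and 2 of U87MG-LMO2 were above all controls and replicate 3 was below them. In each role group replicate 3 was below replicates 1 and 2, with median log2 differences from -0.43 for the polymerases and primase to -0.59 for the helicase activation factors. The excess of replicates 1 and 2 over the controls was less even. It was 0.42 on the log2 scale for the G1/S control genes, 0.31 for nucleotide synthesis, 0.23 for licensing and 0.20 for chromatin copying, and 0.06 in each of the other three groups.

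Without U87MG-LMO2 replicate 3, the edgeR test called 6 of the 41 genes, 5 higher and 1 lower, where 7.97% of the 16392 genes then tested were called higher and 6.72% lower. The higher genes were E2F1, E2F2, RRM2, TK1 and POLE, and the lower gene was RFC5. The median log2 fold change of the list became 0.17. Leaving out any other library gave no call among the 41 genes, with a median of -0.13 without U87MG-LMO2 replicate 2.

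**Figure D3:**
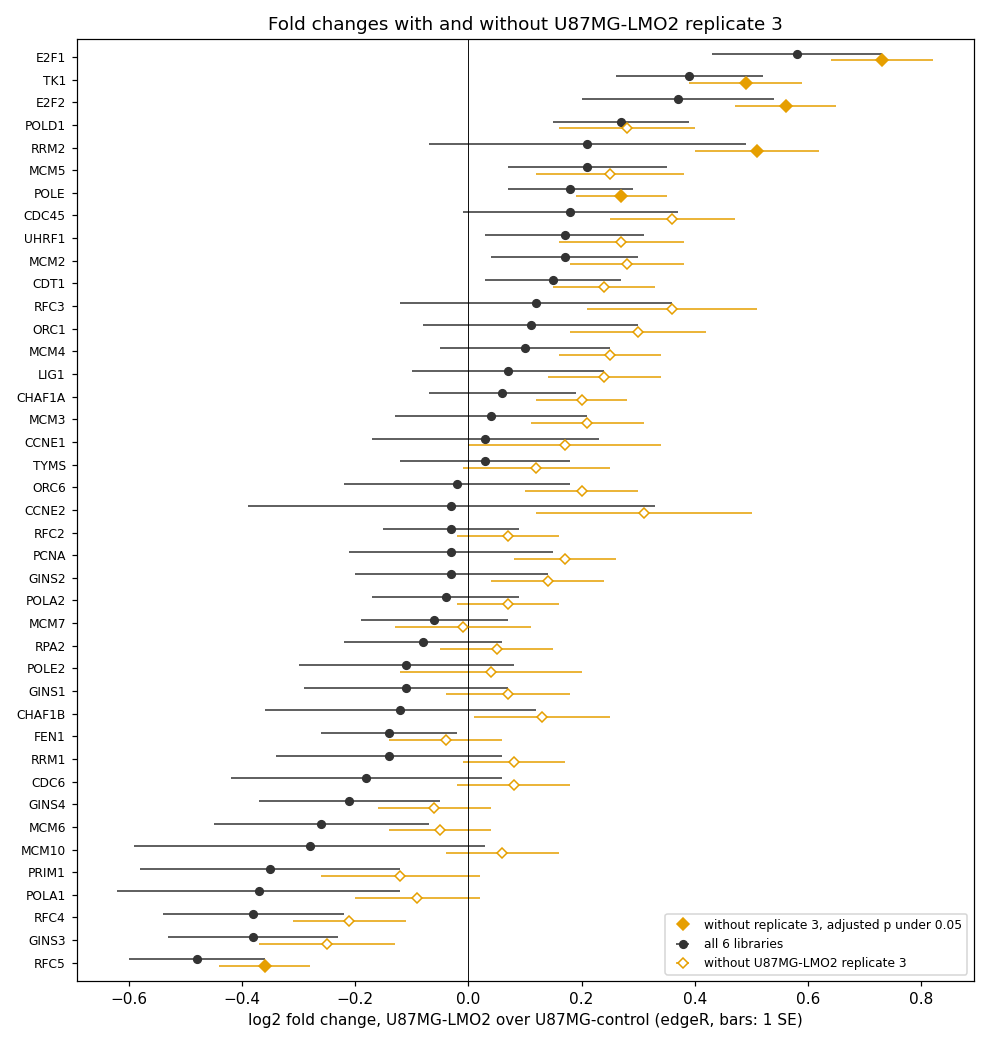
log2 fold change of U87MG-LMO2 over U87MG-control for each of the 41 genes (x axis, bars 1 SE), with all 6 libraries (black circles) and without U87MG-LMO2 replicate 3 (diamonds, filled where the adjusted p was under 0.05). E2F1, TK1, E2F2, RRM2 and POLE on the right and RFC5 at the left end carry filled diamonds, and the SEs are wider with replicate 3 for most genes.

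The G1/S control genes held the highest fold change. E2F1, the activator that drives S-phase transcription and whose promoter site is shown above, was at 128, 141 and 139.7 CPM in the controls and at 211, 239.7 and 159 CPM in U87MG-LMO2. All 3 U87MG-LMO2 libraries were above all controls, replicate 3 by the least. Its log2 fold change was 0.58 (SE 0.15, edgeR adjusted p = 0.0515), just past the threshold, and 0.73 without replicate 3 (adjusted p = 0.00116). DESeq2 called it higher (adjusted p = 0.00818), 1 of the 41 genes against 6.25% of all genes. So did the edgeR fit with no filter on low counts (adjusted p = 0.0264, where 3.45% of all genes were called higher) and the fit on genes with at least 10 counts in every library (adjusted p = 0.0470, 4.87%). E2F1 was not called after correction for GC content, with a log2 fold change of 0.37 (adjusted p = 0.263, 3.48% of all genes called higher), nor with the replicate block (adjusted p = 0.0820), upper-quartile scaling (0.0502) or limma (0.119 and 0.120 at pseudocounts of 1 and 0.1). With the GC correction and without replicate 3 it was 0.59 (adjusted p = 0.00351).

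E2F2, a second activating E2F factor, was at 47.5, 53.6 and 51.4 CPM in the controls and at 70.8, 79.0 and 47.6 CPM in U87MG-LMO2, so that replicates 1 and 2 were above the controls and replicate 3 lay beside the lowest of them. Its log2 fold change was 0.37 (SE 0.17, adjusted p = 0.222) and 0.56 without replicate 3 (adjusted p = 0.00514). The cyclins E, which activate CDK2 at the G1/S transition, were much lower per length, with a mean of 5.22 FPKM, which is scaled to transcript length, for CCNE1 and 5.61 FPKM for CCNE2 in the controls against 50.3 for E2F1. CCNE2 varied the most between the U87MG-LMO2 libraries of all 41 genes, at 13.4, 21.3 and 6.27 CPM, and replicate 3 had 0.376 times the geometric mean of the other two. The controls had 14.7, 14.4 and 12.6 CPM of CCNE2, and the log2 fold change was -0.03 (SE 0.36). CCNE1 had a log2 fold change of 0.03 (SE 0.20).

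Of the nucleotide synthesis genes, TK1, which salvages thymidine, was nearest to a call with all libraries. It was at 108, 130.4 and 125 CPM in the controls and at 162, 179 and 135 CPM in U87MG-LMO2, with no overlap between the groups. The log2 fold change was 0.39 (SE 0.13, edgeR adjusted p = 0.102), and 0.49 without replicate 3 (adjusted p = 0.0115). With the GC correction it was 0.20 (adjusted p = 0.466), and 0.37 with that correction and without replicate 3 (adjusted p = 0.0280). RRM2, the regulated small subunit of ribonucleotide reductase, showed the wider split. Its controls lay close together at 244, 251 and 244 CPM, while U87MG-LMO2 replicates 1 to 3 had 305, 395 and 152 CPM. Replicates 1 and 2 were thus above every control and replicate 3 was below every control, and the log2 fold change was 0.21 (SE 0.28, adjusted p = 0.682) with replicate 3 and 0.51 (adjusted p = 0.0129) without it. RRM1, the large subunit of the same enzyme, had 231, 274 and 146 CPM in U87MG-LMO2 and 227 to 250.2 CPM in the controls (log2 fold change -0.14, SE 0.20). TYMS, which makes thymidylate, was the highest of the 41 genes per length at 212 FPKM in the controls, and its log2 fold change was 0.03 (SE 0.15).

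Among the licensing genes the lowest p belonged to MCM5, a subunit of the helicase ring, at 216, 296 and 295 CPM in the controls and 309.9, 331 and 291 CPM in U87MG-LMO2. Control replicate 1 stood below the other 5 libraries, and the groups overlapped only because U87MG-LMO2 replicate 3 was below control replicates 2 and 3. The log2 fold change was 0.21 (SE 0.14, edgeR adjusted p = 0.373), 0.25 without replicate 3 (adjusted p = 0.227) and 0.08 with the GC correction (adjusted p = 0.756). The 6 subunits MCM2 to MCM7 form 1 ring, and their fold changes with all libraries ran from -0.26 for MCM6 to 0.21 for MCM5. MCM2 was at 173, 194 and 203 CPM in the controls and 211, 251 and 182 CPM in U87MG-LMO2, MCM6 at 178, 169.7 and 179.6 CPM and at 159, 180.2 and 102 CPM. Replicate 3 had 0.604 times the level of the other two for MCM6, 0.664 for MCM3, 0.704 for MCM4, 0.789 for MCM2, 0.901 for MCM7 and 0.910 for MCM5, ratios that were not tested against each other. With the GC trend of each library removed, the log2 differences were closer for most of them, at -0.51 for MCM6, -0.60 for MCM3, -0.47 for MCM4 and -0.49 for MCM2, with -0.23 for MCM7 and -0.27 for MCM5. CDC6, which loads the ring, was at 75.4 to 82.1 CPM in the controls and at 75.0, 92.6 and 42.5 CPM in U87MG-LMO2, where replicate 3 was the lowest of the 6 libraries. Its partner CDT1 was at 149.9, 164 and 128 CPM in U87MG-LMO2 against 123 to 139 CPM in the controls. The log2 difference of replicate 3 from the other two was -0.97 for CDC6 and -0.29 for CDT1, and -0.83 and -0.56 with the GC trend removed. The origin recognition genes ORC1 and ORC6 had log2 fold changes of 0.11 (SE 0.19) and -0.02 (SE 0.20).

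The helicase activation genes were lower in replicate 3 than in all other libraries without exception, 6 of 6. GINS3, a subunit of the GINS tetramer that ties the ring to the polymerase, was at 36.6, 44.2 and 46.7 CPM in the controls and at 35.9, 35.9 and 26.6 CPM in U87MG-LMO2. The groups did not overlap, although control replicate 1 was within 1 CPM of U87MG-LMO2 replicates 1 and 2, and the log2 fold change was -0.38 (SE 0.15, edgeR adjusted p = 0.162), or -0.25 without replicate 3 (adjusted p = 0.187). The other GINS genes had log2 fold changes from -0.21 (GINS4) to -0.03 (GINS2). MCM10, a scaffold of the starting fork, had 48.2, 47.3 and 44.6 CPM in the controls and 45.6, 51.5 and 18.6 CPM in U87MG-LMO2. Replicates 1 and 2 lay close to the controls and replicate 3 had 0.385 times their geometric mean, the second lowest ratio of the list after CCNE2. CDC45, the partner of GINS in the helicase, was at 32.4 to 34.9 CPM in the controls and at 38.3, 48.3 and 27.7 CPM in U87MG-LMO2 (log2 fold change 0.18, SE 0.19).

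POLD1 had the lowest p of the polymerases, at 78.4, 102 and 94.9 CPM in the controls. All 3 U87MG-LMO2 libraries were above them, with a log2 fold change of 0.27 (SE 0.12, edgeR adjusted p = 0.185). It was 0.28 without replicate 3 (adjusted p = 0.141) and 0.03 with the GC correction (adjusted p = 0.916). POLE, the catalytic subunit of the leading strand polymerase, was at 166, 172 and 175 CPM in the controls and at 205, 209 and 168 CPM in U87MG-LMO2, where replicate 3 lay within the range of the controls. It was called only without that library, with a log2 fold change of 0.27 (adjusted p = 0.0408), and its value with all libraries was 0.18 (SE 0.11). The genes of the priming complex, POLA1 and PRIM1, were below every control in replicate 3. POLA1 had 21.9, 22.7 and 20.7 CPM in the controls and 19.4, 21.4 and 9.82 CPM in U87MG-LMO2, and PRIM1 had 20.5 to 23.7 CPM and 17.6, 23.7 and 11.7 CPM. POLA2 and POLE2 had log2 fold changes of -0.04 (SE 0.13) and -0.11 (SE 0.19).

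RFC5, a subunit of the complex that loads the clamp, had the lowest fold change of the list and the lowest p. It was at 149, 151 and 156 CPM in the controls and at 118, 119 and 89.6 CPM in U87MG-LMO2, so that all 3 libraries, not only replicate 3, were well below the controls. Its log2 fold change was -0.48 (SE 0.12, edgeR adjusted p = 0.0508). Without replicate 3 it was -0.36 (adjusted p = 0.0152). DESeq2 called it lower (adjusted p = 0.0128, 4.29% of all genes called lower), as did the fit with no filter (adjusted p = 0.0411, 1.86%), the fit on genes with at least 10 counts in every library (adjusted p = 0.0478, 2.92%) and the fit corrected for GC content (adjusted p = 0.0454, 2.47%). It was not called with upper-quartile scaling (adjusted p = 0.0526), the replicate block (0.0898) or limma (0.0750 and 0.0771 at pseudocounts of 1 and 0.1). Its neighbour in the complex, RFC4, was at 56.2, 51.6 and 54.3 CPM in the controls and 43.7, 49.5 and 31.8 CPM in U87MG-LMO2, again without overlap (log2 fold change -0.38, SE 0.16, adjusted p = 0.175, and -0.21 without replicate 3, adjusted p = 0.166). RFC2 and RFC3, which sit in the same complex, had log2 fold changes of -0.03 (SE 0.12) and 0.12 (SE 0.24), and RFC3 was at 34.0, 48.1 and 22.3 CPM in U87MG-LMO2.

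PCNA, the sliding clamp, was among the steadiest genes in the controls, at 122, 125 and 124 CPM, and was at 127, 151 and 84.7 CPM in U87MG-LMO2. Replicates 1 and 2 were above the controls and replicate 3 below them, which left a log2 fold change of -0.03 (SE 0.18). The flap nuclease FEN1, the ligase LIG1 and the single-strand binding subunit RPA2, which act on the lagging strand, had log2 fold changes of -0.14 (SE 0.12), 0.07 (SE 0.17) and -0.08 (SE 0.14). For all 8 genes of the clamp, its loader and the lagging strand, replicate 3 was the lowest of the 6 libraries.

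UHRF1, which carries DNA methylation over to the new strand, had the lowest p of the chromatin copying genes. It was at 49.5, 59.4 and 60.1 FPKM in the controls and at 61.5, 74.3 and 48.8 FPKM in U87MG-LMO2. Replicate 2 was the highest of the 6 libraries, and replicate 3, the lowest in FPKM, was at 214 CPM within the range of the controls (199 to 241 CPM) on the TMM scale. Its log2 fold change was 0.17 (SE 0.14, edgeR adjusted p = 0.495), 0.27 without replicate 3 (adjusted p = 0.137) and 0.03 with the GC correction (adjusted p = 0.920). CHAF1A and CHAF1B are subunits of the assembly factor that places histones behind the fork, and they differed in replicate 3. CHAF1A was at 167, 176 and 125 CPM in U87MG-LMO2 against 147 to 153 CPM in the controls, and CHAF1B at 44.3, 50.9 and 24.9 CPM against 37.7 to 46.5 CPM. The ratio of replicate 3 to the other two was 0.732 for CHAF1A and 0.525 for CHAF1B. On the log2 scale these were -0.45 and -0.93, and -0.57 and -0.85 with the GC trend of each library removed. The difference between these genes was not tested.

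The size of the replicate 3 difference moved with GC content. The 41 genes had a median transcript GC content of 51.4% (49.8% for all tested genes), from 38.4% to 65.8%. Across them, Pearson's r between GC content and the log2 difference of replicate 3 from replicates 1 and 2 was 0.666, and it was 0.354 across 14458 tested genes, as a description over genes that share their libraries. The 20 genes with GC content below the median of the list had a median difference of -0.75 and the 21 at or above it -0.34, where all genes on the same sides had -0.13 and 0.16. Replicate 3 also had the steepest trend of the 6 libraries over all genes, at -0.27 in the lowest and 0.27 in the highest quintile of GC content (median log2 deviation), against 0.18 and -0.16 for U87MG-control replicate 1. When each library's trend was removed, r was 0.229 for the 41 genes, the median difference remained -0.51, and replicate 3 was the lowest U87MG-LMO2 library for 41 of the 41 genes (38.5% of the 14458 genes with a GC content). After that correction and without replicate 3, 5 genes were higher and 1 lower (8.27% and 7.52% of all genes), namely E2F1, E2F2, RRM2, TK1 and RFC3, and RFC5. POLE was called in only the uncorrected fit and RFC3, at a log2 fold change of 0.46 (adjusted p = 0.0422), in only the corrected one.

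**Figure D4:**
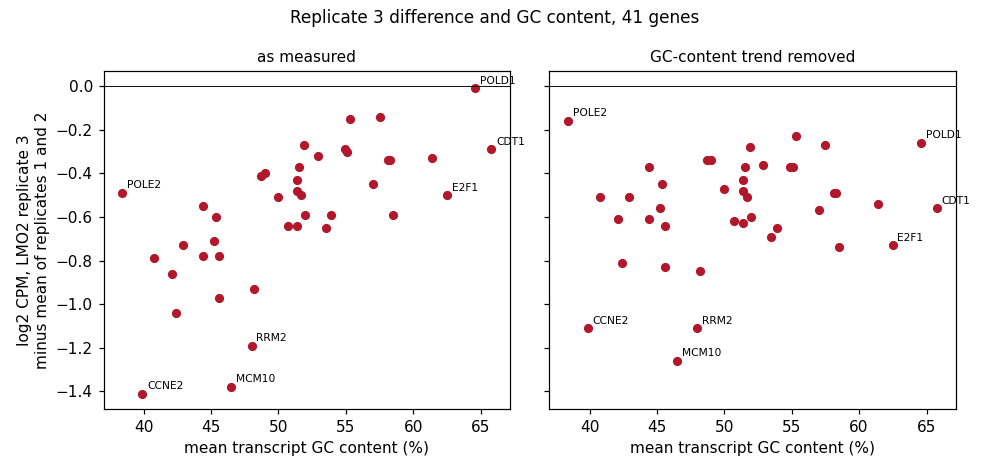
log2 CPM of U87MG-LMO2 replicate 3 minus the mean of replicates 1 and 2 (y axis) against mean transcript GC content in percent (x axis), 1 point per gene for the 41 genes, as measured (left) and with each library's GC trend removed (right). Pearson's r was 0.666 on the left and 0.229 on the right, and the median difference was -0.51 in both.

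Genes with and without an E2F-like match in the promoter had nearly the same medians. For the 20 genes with a match the log2 fold changes had a median of 0.00 and the replicate 3 differences one of -0.55, against -0.02 and -0.59 for the 16 without. The excess of replicates 1 and 2 over the controls had a median of 0.15 in both sets.

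The rest of the replication machinery, a list of 49 further genes, had 0 genes higher and 3 lower with all libraries, next to 4.72% and 2.75% of all genes. The 3 were TOP1, which relaxes DNA ahead of the fork (log2 fold change -0.53, SE 0.09, edgeR adjusted p = 0.0144), ORC3, an origin recognition subunit (-0.59, SE 0.13, adjusted p = 0.0368), and WDHD1, which links helicase and polymerase (-0.61, SE 0.15, adjusted p = 0.0471). TOP1 was at 129, 136 and 140.4 CPM in the controls and 93.0, 95.9 and 91.2 CPM in U87MG-LMO2, a level that replicate 3 had in common with the other two. Of the fits that left out 1 library, TOP1 was called in 3, without U87MG-control replicate 1 or U87MG-LMO2 replicate 2 or 3, and ORC3 and WDHD1 in 2, without U87MG-LMO2 replicate 2 or 3 (highest adjusted p 0.0911, 0.139 and 0.172). The GC correction kept only ORC3 (adjusted p = 0.0472), and the replicate block (adjusted p = 0.0498) and limma (0.0225 and 0.0238) kept only TOP1. The list's median log2 fold change was -0.17, and replicate 3 was the lowest U87MG-LMO2 library for 44 of its 49 genes (89.8%). In replicates 1 and 2 its median log2 difference from the controls was 0.01, where the 41 genes had 0.16, and the difference between the lists was not tested.

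Of 26 regulators of the G1/S switch outside the 41 genes, 22 were tested, and 1 was higher and 1 lower. Of all genes, 4.72% were called higher and 2.75% lower. CDKN2D, an inhibitor of CDK4 and CDK6, was at 10.7 to 13.9 CPM in the controls and 26.7, 27.4 and 24.3 CPM in U87MG-LMO2 (log2 fold change 1.10, SE 0.14, edgeR adjusted p = 0.00500). It was called in each of the 6 fits that left out 1 library. E2F5, a repressive E2F factor, was lower at 1.95, 1.64 and 2.23 CPM against 5.21, 3.36 and 4.46 CPM in the controls (log2 fold change -1.15, SE 0.24, adjusted p = 0.0287). Of those 6 fits only the one without U87MG-LMO2 replicate 3 called it (highest adjusted p 0.112), and it was not called with the GC correction (adjusted p = 0.0730). In both, replicate 3 lay close to replicates 1 and 2. The p21 gene CDKN1A, which blocks cyclin-dependent kinases, was at 179.7 to 203 CPM in the controls and at 203, 223 and 230.2 CPM in U87MG-LMO2 (log2 fold change 0.20, SE 0.10, adjusted p = 0.250).

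Mitosis genes, a list of 40, gave 0 calls in either direction with all libraries, where 4.72% of all genes were higher and 2.75% lower. Their median difference of replicate 3 was larger than that of the 41 genes, which was not tested. Replicate 3 was the lowest U87MG-LMO2 library for 40 of 40, with a median log2 difference of -0.90 from replicates 1 and 2 (-0.74 with the GC trend removed). Their summed level was 4509, 5023 and 4966 CPM in the controls and 5345, 5330 and 3050 CPM in U87MG-LMO2. In replicates 1 and 2 their median log2 difference from the controls was 0.14, beside 0.16 for the 41 genes. With the GC trend removed it was 0.18, beside 0.14. Both libraries were above every control for 18 of the 40 mitosis genes (45.0%) and below every control for 2. The share above was 41.5% of the 41 genes and 24.3% of all genes. MKI67, the proliferation marker, was at 820.2, 955 and 406 CPM in U87MG-LMO2 and at 822 to 872 CPM in the controls. FN1, a matrix gene outside these lists, moved the other way in replicate 3 and was at 4337, 3972 and 9016 CPM in U87MG-LMO2 replicates 1 to 3. The controls had 3455, 2541 and 2704 CPM of FN1, below all 3 U87MG-LMO2 libraries. The part of proliferation, of the LMO2 level and of library GC content in the replicate 3 difference was not tested.

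**Figure D5:**
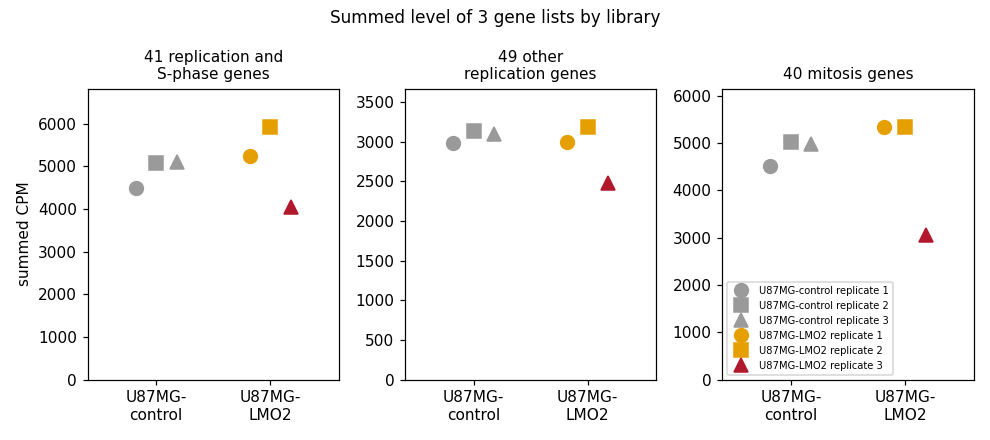
Summed CPM (y axis, from 0) of the 41 genes, of 49 other replication genes and of 40 mitosis genes in each library, with U87MG-control in grey, U87MG-LMO2 replicates 1 and 2 in yellow and replicate 3 in red. Replicate 3 is the lowest library in each panel, at 4047, 2485 and 3050 CPM.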

How the data were processed

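The 41 members and the other gene lists were chosen with earlier results of these data known. For each library the authors deposited expected counts, which estimate the reads of each gene without normalization, and FPKM, which corrects them for gene length and library size. The submitters' processing notes name GRCh38.p12, Bowtie2 and BWA without saying what each was used for, and the counting program is not given in the sources used here. The table of U87MG-LMO2 replicate 3 held 3 unreadable lines, which were skipped. Genes without a line were taken as 0. For 131 genes (0.35% of control counts, 0 members) the mean FPKM of the library tables did not match the authors' mean FPKM in the deposited comparison. These genes were left out. The fold change and probability columns of that comparison were not used. Symbols came from RefSeq for 89.6% of genes.

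Counts were rounded and tested in R 4.3.3 with edgeR 4.0.16 (filterByExpr, TMM, glmQLFTest, 2-sided, no block), with Benjamini-Hochberg adjustment over 16092 genes and a threshold of 0.05. The smallest count of a member in any library was 84. DESeq2 1.42.0 and limma 3.58.1 on log2(FPKM + 1) and log2(FPKM + 0.1), other filters, scalings, a GC-content offset (lowess, GC known for 89.8% of tested genes) and each library left out were alternatives. Scripts were tested on simulated data. Full statistics are given for every called member or, in a role group without a call, for the one with the lowest p, and other lists name their called genes. Values of the remaining genes were chosen after they were seen. The labels do not say whether replicates came from separate cultures, so p-values measure only the spread between these libraries, which may be technical. Intervals and errors on counts do not cover molecules copied in PCR.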

Additional observations from a re-analysis of the deposited data

How the results depend on the processing

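All values in this paragraph concern U87MG-LMO2 against U87MG-control. Libraries with the same replicate number showed no shared deviation from their group means (correlations -0.117, -0.003 and -0.041). This cannot show whether the libraries were paired by design. With the replicate block, 387 genes were higher and 189 lower, 0 of the 41 genes and 1 of the other replication genes (lower). DESeq2 called 691 genes lower, and 1 of the 41 genes higher, 1 lower, and 5 other replication genes lower. With no filter these were 1, 1 and 5, and with at least 10 counts in every library 1 of the 41 genes was higher and 1 lower. With limma, log2(FPKM + 1) gave 1 other replication gene lower, and log2(FPKM + 0.1) gave 1 as well. With the GC correction, 503 genes were higher, 1 of the 41 genes and 1 other replication gene were lower, and 0 G1/S switch genes were lower. Chosen after seeing the data, the GC correction together with leaving out U87MG-LMO2 replicate 3 gave 1212 genes higher and 1101 lower, 5 and 1 of the 41 genes, 5 and 5 other replication genes, 3 G1/S switch genes higher and 10 mitosis genes higher. Total counts, upper quartile, DESeq2 size factors and FPKM as scalings of the library positions, also chosen after seeing the data, moved no count of the 41 genes by over 1.5 times.

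Leaving out 1 library at a time, 102 to 1307 genes were higher and 42 to 1102 lower, 0 to 5 and 0 to 1 of the 41 genes, 0 to 3 and 0 to 5 other replication genes, 1 to 3 and 0 to 1 G1/S switch genes, and 0 to 7 and 0 to 1 mitosis genes. The median log2 fold change of the 41 genes ran from -0.13 to 0.17. The highest of these counts, and every call of the 41 genes, came without U87MG-LMO2 replicate 3, where 7.97% of all genes were higher and 6.72% lower. In the other lists POLE3, POLE4 and ASF1B, the G1/S switch genes CDKN2D, E2F8 and CDKN1B, and the mitosis genes CDK1, PTTG1, KIF11, KIF23, CDCA8, INCENP and PRC1 were then higher, and TOP1, ORC3, WDHD1, RRM2B, HELLS, E2F5 and DLGAP5 lower.

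None of the 41 genes passed the test with all libraries. The sign of the fold change was fixed for 14 of them and turned under some alternative for the 27 others. It turned with the GC correction for ORC6 (0.06), CDT1 (-0.11), POLE2 (0.11), PCNA (0.06), LIG1 (-0.07), CCNE2 (0.13) and CHAF1A (-0.05). It turned with limma, at pseudocounts of 1 and of 0.1, for MCM3 (-0.03 and -0.03), GINS1 (0.16 and 0.18), RFC3 (-0.08 and -0.09), LIG1 (-0.01 and -0.01) and CCNE1 (-0.08 and -0.09). With the GC correction and without U87MG-LMO2 replicate 3 it turned for ORC6 (0.26), CDC6 (0.14), MCM6 (0.04), MCM10 (0.11), GINS1 (0.13), GINS2 (0.10), POLA1 (0.0074), POLA2 (0.06), POLE2 (0.18), PCNA (0.23), RFC2 (0.05), RPA2 (0.07), RRM1 (0.16), CCNE2 (0.43) and CHAF1B (0.16). Over the 6 fits that left out 1 library, log2 fold changes crossed 0 for 24 genes: ORC1 (-0.11 to 0.30), ORC6 (-0.19 to 0.20), CDC6 (-0.43 to 0.08), MCM3 (-0.13 to 0.21), MCM4 (-0.03 to 0.25), MCM7 (-0.18 to 0.03), MCM10 (-0.54 to 0.06), CDC45 (-0.03 to 0.36), GINS1 (-0.22 to 0.07), GINS2 (-0.15 to 0.14), POLA2 (-0.13 to 0.07), POLE2 (-0.25 to 0.04), PCNA (-0.23 to 0.17), RFC2 (-0.13 to 0.07), RFC3 (-0.19 to 0.36), LIG1 (-0.03 to 0.24), RPA2 (-0.19 to 0.05), RRM1 (-0.34 to 0.08), RRM2 (-0.11 to 0.51), TYMS (-0.10 to 0.12), CCNE1 (-0.15 to 0.17), CCNE2 (-0.51 to 0.31), CHAF1A (-0.03 to 0.20) and CHAF1B (-0.33 to 0.13). The cause was not tested.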
